A study of Homo sapiens with 12 samples.

Results

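The windows compared here are the 2 kb around the starts of 21874 transcriptional units, the transcribed stretches of the deposited annotation, taken as 1 kb on each side of each start. All 21874 units were used, and each was kept in the class that the annotation gives it. The classes were mRNA (7810 units), antisense asRNA (3546), enhancer-associated eRNA (3257), short intergenic sincRNA (2580), convergent conRNA (778), upstream antisense uaRNA (685) and lincRNA (302). A further 2655 units had no class, and 261 units of 11 rarer annotation labels were pooled as other annotated units. The sources used here do not give how the authors drew the units.

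All libraries came from unperturbed K562, an established human leukaemia line with erythroid character. In TT-Seq, cells were given 500 μM 4-thiouridine (4sU) for 5 min, the RNA was sonicated, and the labelled fragments were purified, so the count at a position reports RNA made during the pulse on 1 strand. In the N20 libraries, cells were crosslinked for 7.5 min and chromatin was precipitated with the N-20 antibody against RNA polymerase II, which carries no strand. Each assay had 2 libraries, with 68913035 and 71317148 binned counts for TT-Seq and 12598494 and 23344930 for N20. As a check on other libraries of the same cells, 4sU-Seq (the same pulse, purified without prior sonication) and ChIP of serine 2 phosphorylated polymerase (S2P) were used, also with 2 libraries each. The labels do not say that replicates were separate cultures, so p-values measure only the spread between these libraries. Levels are CPM, the usual scaling of counts to a library's binned total.

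RNA polymerase II is recruited to a promoter, starts RNA synthesis, and often pauses a short way downstream before elongation factors release it into the gene. ChIP measures how much polymerase sits on the DNA, whether it moves or not, while a short 4sU pulse measures the RNA that moving polymerase leaves behind. RNA made per polymerase therefore sets an output against an occupancy. At enhancers the polymerase makes short, unstable RNAs, and many promoters also make RNA in the upstream antisense direction.

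The promoters at the ends of the mRNA-class ranking are shown because their base composition differed along with the ratio. Each run is the 250 bases before the RefSeq start (RefSeq, GRCh38.p14), 5′ to 3′, with CpG dinucleotides in capitals. RCC1 (chr1:28505793-28506042, plus strand) and TRIM44 (chr11:35662525-35662774, plus strand) had the highest TT-Seq over N20 by the naming rule. ABHD5 (chr3:43690688-43690937, plus strand) and UBE2S (chr19:55407789-55408038, minus strand) had the lowest.
RCC1: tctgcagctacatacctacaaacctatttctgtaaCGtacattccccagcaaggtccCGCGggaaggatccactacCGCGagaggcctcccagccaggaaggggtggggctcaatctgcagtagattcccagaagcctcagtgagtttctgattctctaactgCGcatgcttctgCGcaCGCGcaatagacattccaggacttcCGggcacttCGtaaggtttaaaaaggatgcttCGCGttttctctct
TRIM44: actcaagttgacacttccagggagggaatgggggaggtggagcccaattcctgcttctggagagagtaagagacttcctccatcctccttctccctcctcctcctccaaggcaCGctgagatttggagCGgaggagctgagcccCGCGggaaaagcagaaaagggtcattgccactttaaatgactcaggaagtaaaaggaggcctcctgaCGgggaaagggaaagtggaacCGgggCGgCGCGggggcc
ABHD5: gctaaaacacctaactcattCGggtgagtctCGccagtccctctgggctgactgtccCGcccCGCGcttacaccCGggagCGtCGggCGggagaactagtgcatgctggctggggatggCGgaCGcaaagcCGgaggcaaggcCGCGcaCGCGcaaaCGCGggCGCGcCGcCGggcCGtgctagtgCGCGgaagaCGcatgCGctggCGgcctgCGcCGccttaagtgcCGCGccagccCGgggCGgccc
UBE2S: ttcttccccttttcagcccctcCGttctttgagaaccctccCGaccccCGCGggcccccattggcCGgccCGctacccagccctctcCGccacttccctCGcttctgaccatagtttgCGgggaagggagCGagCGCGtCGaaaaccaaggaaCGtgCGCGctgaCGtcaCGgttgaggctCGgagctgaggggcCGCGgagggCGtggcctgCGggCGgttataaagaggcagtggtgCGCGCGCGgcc

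These 4 promoters held 13 (RCC1), 9 (TRIM44), 34 (ABHD5) and 28 (UBE2S) CpG dinucleotides, with GC contents of 52.4%, 58.0%, 71.6% and 67.6%. The RefSeq starts of TRIM44 and UBE2S lie 250 and 386 bp downstream of their unit starts. Their runs thus lie inside the annotated unit, and neither gene is in the comparison that follows. Over 3612 mRNA-class units that start within 200 bp of a RefSeq start, median promoter GC was 73.0% in the 10% with the lowest ratio (362 promoters). It was 66.4% in the middle of the ranking (2888 promoters) and 57.4% in the 10% with the highest ratio (362 promoters). The letters TATAAA (the core of a TATA box), on either strand, were in 4.14%, 3.15% and 9.39% of the promoters of these groups, against 10.7% of all 35116 promoters in the table. The letters CCGGAAGT (a match to ETS-family sites), on either strand, were in 3.87%, 8.21% and 12.4%, against 3.42% of all promoters. RCC1 held the second of these and UBE2S the first. The part of GC content in the ratio was not tested.

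TT-Seq and N20 placed their signal differently around the same starts. At the 4033 mRNA-class starts with no other start in the window, N20 peaked in the first 200 bp downstream, at a mean (outer 1% trimmed on each side) of 1.46 and 1.54 CPM per 200 bp bin, 13.5 and 13.6 times the level 2 kb upstream. It had dropped to 0.197 and 0.203 of that bin 2 kb downstream. TT-Seq on the unit's own strand was nearly absent before the start, with 1.23% and 1.42% of the window's signal there. It was still climbing 2 kb into the unit, at 1.89 and 1.53 times its first downstream bin. N20, which has no strand, had 28.3% and 30.7% of its window signal before the start.

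Enhancer units had another shape. At 2571 eRNA starts with no other start in the window, TT-Seq peaked in the first 200 bp at 0.131 and 0.140 CPM, and had declined to 0.183 and 0.178 of that level 2 kb downstream. The N20 peak at these starts was 0.242 and 0.248 CPM, only 2.43 and 2.20 times the level 2 kb upstream. eRNA units had a median length of 974 bp, against 43060 bp for the mRNA class, so a 1 kb stretch downstream reaches past the end of many. At 2009 asRNA starts, the opposite strand carried more TT-Seq than the unit's own strand throughout the window, with 0.459 and 0.488 CPM in the first bin.

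**Figure D1:**
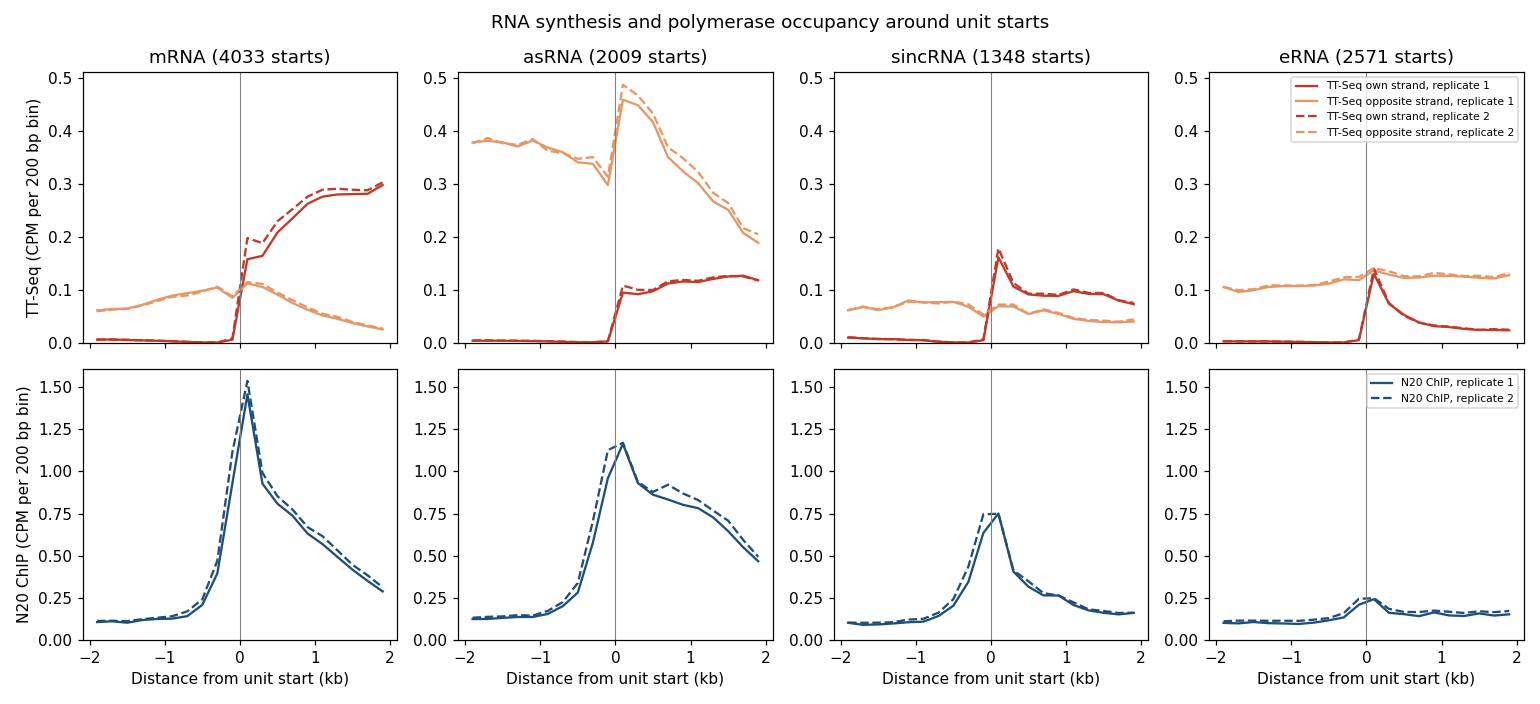
Mean TT-Seq (top, own and opposite strand) and N20 (bottom) in CPM per 200 bp bin, outer 1% trimmed on each side, against distance from the unit start in kb, for 4 classes and starts with no other start in the window. Solid and dashed lines are the 2 libraries. In the mRNA class N20 peaks at 1.46 and 1.54 CPM just past the start while TT-Seq climbs downstream, and at eRNA starts TT-Seq decays to 0.183 and 0.178 of its first bin.

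The levels in the windows ran over wide ranges in both assays. The median mRNA-class start had 0.784 and 0.883 CPM of TT-Seq on its own strand (54 and 63 counts) and 7.62 and 8.48 CPM of N20 (96 and 198 counts). The median eRNA start had 0.218 and 0.224 CPM of TT-Seq (15 and 16 counts) and 0.952 and 1.20 CPM of N20 (12 and 28 counts). In 1001283 background windows of the same size, more than 10 kb from any unit, N20 had a median of 4 and 6 counts and a 95th percentile of 20 and 36. N20 was above that percentile in both libraries at 88.3% of mRNA-class starts, at 85.1% of asRNA starts, and at 31.1% of eRNA starts. At most eRNA starts N20 was thus not detectable above background at this depth. Every deposited ChIP count per 200 bp bin is even (none odd in 3186304 and 4695313 filled N20 bins, against 58.6% and 59.1% odd in TT-Seq on the plus strand), so the independent N20 events may be fewer than the counts.

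Set against the mRNA class in each library, eRNA starts were lower in both assays and much lower in N20. Their median was 1.78 and 1.91 log2 units below the mRNA class in the TT-Seq libraries and 2.90 and 2.78 below it in the N20 libraries. The resulting RNA per polymerase signal was 1.99-fold the mRNA class (a log2 difference of 0.99). The antisense-type classes lay on the other side. asRNA starts had as much N20 as mRNA starts (log2 differences of 0.03 and 0.01) with TT-Seq at -1.20 and -1.25, so their RNA per polymerase was 0.423 of the mRNA class. conRNA was at 0.445, uaRNA at 0.520, unclassified units at 0.652 and sincRNA at 0.706 of the mRNA class. For these 6 classes and the other annotated units (0.908) the libraries of the 2 assays did not overlap, but with 2 libraries against 2 the exact two-sided permutation test cannot go below p = 0.333, which is what each gave. lincRNA starts (1.05-fold, exact permutation p = 0.667) overlapped between assays.

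**Figure D2:**
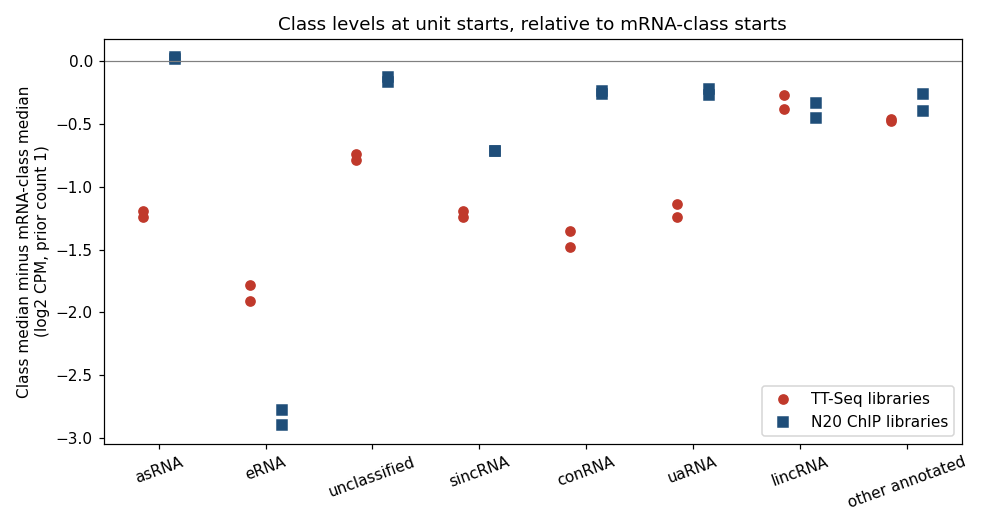
Each class's median level minus the mRNA-class median (log2 CPM, prior count 1) in the 2 TT-Seq libraries (circles) and the 2 N20 libraries (squares). eRNA squares lie at -2.90 and -2.78, below the circles at -1.78 and -1.91, while asRNA squares lie near 0 and its circles at -1.20 and -1.25.

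Both directions depend on how the window is read. With only windows whose N20 was above background in both libraries, the eRNA difference turned to -0.68. That restriction picks windows by the denominator of the ratio. A second reading grouped all starts by their N20 level, which also sorts them by that denominator. It was chosen after seeing the data. At starts with N20 of up to 1 CPM, median TT-Seq was 0.203 and 0.210 CPM in 1592 eRNA units and 0.189 and 0.196 CPM in 521 mRNA-class units. At 8 to 16 CPM of N20 it was 0.348 and 0.386 CPM in 170 eRNA units and 1.02 and 1.16 CPM in 3071 mRNA-class units. From the lowest N20 range to the highest, the median TT-Seq of the mRNA class climbed to 1.31 and 1.57 CPM while that of the eRNA class reached 0.392 and 0.463 CPM (29 units). Where N20 was lowest, eRNA units thus had about the same TT-Seq as mRNA-class units. A level of 1 CPM is under the background 95th percentile of N20 (20 and 36 counts). No start in that range thus had N20 above background in both libraries. Where N20 was highest, eRNA units had 0.298 and 0.295 of the mRNA-class TT-Seq in the 2 libraries. Between these ends, at 4 to 8 CPM of N20, median TT-Seq was 0.697 and 0.785 CPM in the mRNA class, 0.551 and 0.547 CPM in lincRNA, 0.334 and 0.379 CPM in sincRNA, and 0.276 and 0.294 CPM in asRNA.

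**Figure D3:**
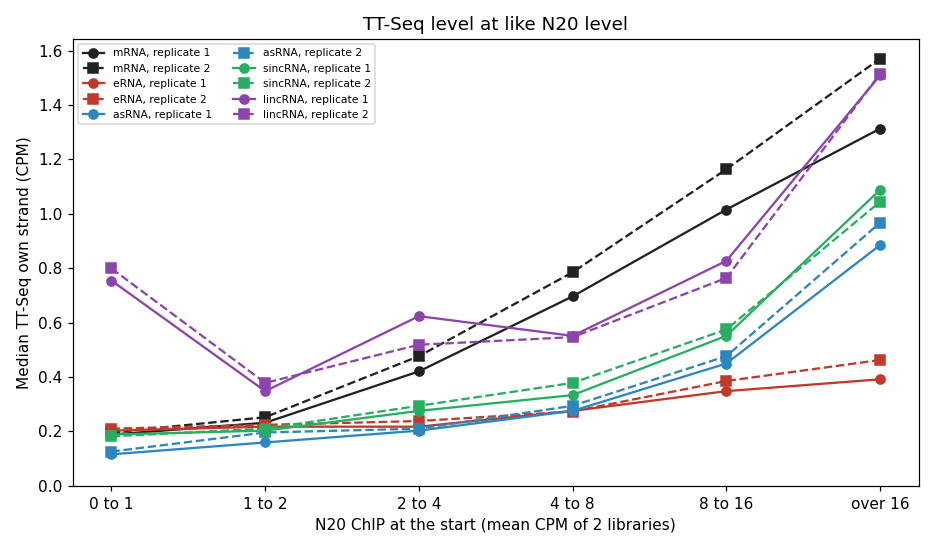
Median own-strand TT-Seq (CPM) in 6 ranges of N20 level (mean CPM of 2 libraries) for 5 classes, 1 line per TT-Seq library. mRNA-class lines climb from 0.189 and 0.196 to 1.31 and 1.57 CPM, eRNA lines from 0.203 and 0.210 to 0.392 and 0.463 CPM.

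For asRNA, conRNA and uaRNA the direction changed with the strand used. Their windows held a median of 125 and 140 (asRNA), 68.5 and 74 (conRNA) and 75 and 88 (uaRNA) TT-Seq counts on the opposite strand, against 32 and 35 in the mRNA class. When both strands of TT-Seq were summed, as ChIP sums them, the log2 difference from the mRNA class became 0.59 for asRNA, 0.27 for conRNA and 0.45 for uaRNA. In such a window the polymerase of the unit and that of the opposite transcript cannot be told apart. sincRNA also turned, to 0.41, when only starts with no other start in the window were kept.

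Across all starts, the ranks of the 2 assays agreed loosely. Spearman's rho between 1 TT-Seq and 1 N20 library ran from 0.392 to 0.447 over the 4 pairs of libraries, against 0.965 between the TT-Seq libraries and 0.939 between the N20 libraries. Within classes the rho of the mean levels was 0.440 for asRNA, 0.355 for mRNA, 0.218 for lincRNA and 0.149 for eRNA, the lowest. These are descriptions across genomic starts that share libraries, and overlapping windows are not independent.

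**Figure D4:**
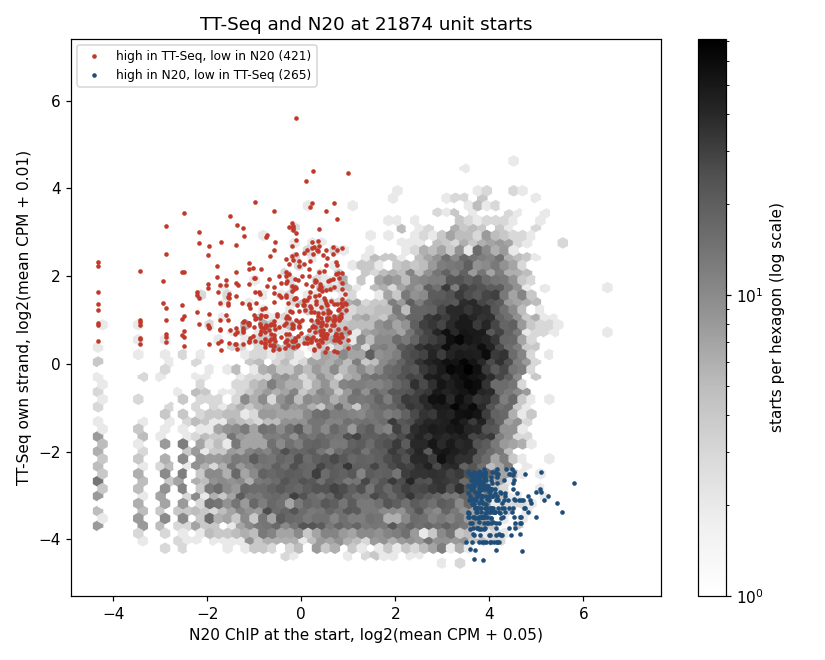
Own-strand TT-Seq (log2 of mean CPM + 0.01) against N20 (log2 of mean CPM + 0.05) at 21874 starts, as hexagons shaded by the number of starts on a log scale. Red points are the 421 starts high in TT-Seq and low in N20, and blue points the 265 starts high in N20 and low in TT-Seq.

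The single starts were then compared in 1 fit (edgeR's quasi-likelihood test, trimmed-mean scaling, Benjamini-Hochberg adjustment over all windows). Because no common scale exists between RNA and ChIP, a log2 ratio of 0 stands for the typical start, and scaling by library totals instead moves the median of all starts from -0.08 to -3.37. Of 21159 starts that passed the filter on low counts, 7039 were higher in TT-Seq (33.3%) and 7535 lower (35.6%). At a change of 2-fold or more, 5798 were higher (27.4%) and 6346 lower (30.0%). By class, 47.2% of tested eRNA starts were higher and 16.9% lower. Of asRNA starts 17.7% were higher and 54.4% lower, and of mRNA-class starts 38.4% were higher and 30.7% lower. The range within a class was wider than the gaps between classes: the middle 50% of mRNA-class starts ran from -1.01 to 1.25 and that of eRNA starts from -0.39 to 2.26.

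Among mRNA-class starts with a gene name, no other start in the window and all 4 libraries above the 99th percentile of background, 934 were called. RCC1, which encodes the exchange factor for the GTPase Ran, had the highest ratio. Its start had 49.7 and 55.1 CPM of TT-Seq and 14.6 and 15.4 CPM of N20, a log2 ratio of 5.10 (SE 0.19, edgeR adjusted p = 1.3e-09). Both TT-Seq libraries were far above the mRNA-class medians given above, and both N20 libraries less so. TRIM44, a tripartite-motif protein, had 27.4 and 31.3 CPM of TT-Seq and 9.84 and 11.7 CPM of N20 (log2 ratio 4.73). HNRNPD, an RNA-binding protein of mRNA turnover, had 36.0 and 46.8 CPM of TT-Seq beside 17.1 and 15.8 CPM of N20 (4.63). The ratio was 4.56 for ERV3-1, 4.45 for RPS20 (a ribosomal protein of the small subunit), 4.36 for ANP32E (a histone chaperone for H2A.Z), 4.24 for LMAN1 (a cargo receptor of the secretory pathway) and 4.17 for TM9SF4. With 500 bp each side, TRIM44 (0.43) and HNRNPD (0.64), whose RefSeq starts lie 250 and 474 bp downstream, were no longer called, and both were above 4 with the window at the RefSeq start. Values of these named starts under another strand or window are relative to the median of all starts in that reading.

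At the other end, ABHD5, the co-activator of triglyceride lipase, had 28.9 and 36.3 CPM of N20 and 0.856 and 1.14 CPM of TT-Seq, a log2 ratio of -1.74 (SE 0.21, edgeR adjusted p = 1.0e-05). UBE2S, a ubiquitin-conjugating enzyme of mitosis, had 20.96 and 31.7 CPM of N20 and 0.856 and 0.841 CPM of TT-Seq (-1.66). GLUL, glutamine synthetase, had the most N20 of this group, 44.6 and 41.0 CPM, with 1.25 and 1.88 CPM of TT-Seq (-1.48). GABPB1, a subunit of an ETS-family factor, was at -1.53, SRCAP, a chromatin remodeller, at -1.47, ZBTB45 at -1.47 (SE 0.23), NSD3, a histone methyltransferase, at -1.33, and CYP20A1 at -1.31. The demand for TT-Seq above background sets how low a ratio can be in this group: 868 of the 934 starts were above 0. GABPB1 turned to 0.54 with both strands summed, and NSD3, whose RefSeq start lies 706 bp downstream of the unit start, turned to 0.73 with the window at the RefSeq start.

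The same conditions named the ends of each other class. In the sincRNA class LOC105371703 had 58.2 and 68.3 CPM of TT-Seq and 11.1 and 9.17 CPM of N20 (log2 ratio 5.95). The unit of H1-3, a linker histone gene that the annotation files as asRNA, was at 5.23, as was the unclassified unit of COX7C, a subunit of cytochrome c oxidase. The highest conRNA unit, which covers RPL4, was at 4.50 in the 1 kb window and -3.39 with 500 bp each side. The highest eRNA, at chr1:61057111-61057908, had 10.5 and 8.19 CPM of TT-Seq and 3.97 and 3.51 CPM of N20 (4.64). The highest uaRNA (chr7:126668130-126681984) was at 3.62, the highest lincRNA (chr4:184518806-184537549) at 2.25 and the highest other unit (chr18:73141266-73264807) at 4.16. With 500 bp each side this last unit was at 0.86 and no longer called.

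The lowest among them was MIR17HG, the host of the miR-17 to miR-92a cluster. It had 60.6 and 113.9 CPM of N20, and 1.04 and 2.38 CPM of TT-Seq (log2 ratio -2.38, SE 0.35). In the asRNA class the lowest was the unit of SOCS1, a suppressor of cytokine signalling, at -1.74, and it turned to 0.95 with the window at the RefSeq start. The lowest sincRNA (chr17:81485887-81487962) was at -1.65, the lowest uaRNA (chr20:2871591-2873353) at -1.47, the lowest eRNA (chr22:19755433-19760554) at -1.33 and the lowest conRNA (chr14:102583556-102592425) at -1.22. The lowest lincRNA (chr19:15827827-15837461) was at -1.01 and the lowest other unit, that of NDUFV2, a subunit of respiratory complex I, at -0.67. The eRNA, lincRNA and NDUFV2 values turned positive with 500 bp each side.

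Ratios differed with the distance between the annotated unit start and the RefSeq start, and its part in them was not tested. Of 6811 named mRNA-class units, 61.4% started within 200 bp of the RefSeq start and 22.1% more than 500 bp upstream of it. The median log2 ratio was 0.47 in 4181 tested units within 200 bp, -1.004 in 773 units 500 to 1000 bp upstream, -1.34 in 529 units 1000 to 2000 bp upstream, and -0.25 in 168 units 2000 bp or more upstream. It was 0.06 in 777 units 200 to 500 bp upstream, and -0.49 in 341 units more than 200 bp downstream of the RefSeq start. N20 was as high in the 500 to 1000 bp group (9.68 and 9.85 CPM) as within 200 bp (8.41 and 9.42 CPM), while TT-Seq was 0.421 and 0.547 CPM against 1.18 and 1.30 CPM. From 1000 to 2000 bp upstream both were lower, with N20 at 3.97 and 4.03 CPM and TT-Seq at 0.116 and 0.126 CPM, and from 2000 bp N20 was at 1.11 and 1.37 CPM.

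Each gene list below is given for both centres. The windows at the RefSeq start were fitted separately, with a scale of their own on which 0 is again the typical start. With windows at the RefSeq start of 9459 tested named units, 3180 (33.6%) were higher and 3478 (36.8%) lower. On the scale of the unit-start fit these values would be 0.52 higher, with 4431 starts higher (46.8%) and 2348 lower (24.8%), so a window that does not move reads 0.52 lower at the RefSeq start. The same named units at their own starts gave 3134 higher and 3470 lower. RefSeq-start values of the list genes are on the scale of their own fit unless the unit-start scale is named. In background windows TT-Seq on 1 strand had a 95th percentile of 5 or 6 counts. Near it at their unit starts were RPL7A (5 and 5 TT-Seq counts), H3C7 (5 and 5), SNHG21 (6 and 5) and HEXIM2 (5 and 8). The same holds for CDT1 (4 and 6), UROD (3 and 7), TUG1 (1 and 6) and KRT18 (2 and 7). The size of these low ratios is not measured.

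Ribosomal protein genes, which are short and heavily transcribed, were high in RNA per polymerase as a list. Of 58 tested genes, 49 were higher, 2 lower and 7 not called, with a median log2 ratio of 2.33 against -0.08 for all starts. At the RefSeq start 58 of 59 were higher and 1 was lower (median 2.48, or 2.99 on the unit-start scale). RPL35A had the highest value, with 12.4 and 12.8 CPM of TT-Seq and 1.75 and 1.37 CPM of N20 (log2 ratio 6.35, SE 0.24). RPL7A had the lowest at its unit start (-3.03, 1622 bp upstream of the RefSeq start) and 0.78 at the RefSeq start. RPL8, whose window does not move, was at -2.16. RPL24 went from -0.62 to 5.03. These genes have many near-identical processed copies, and the sources used here do not give how either assay assigned reads with several matches.

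Replication-dependent histone genes also had a high median, 1.94 over 17 tested genes, with 9 higher and 3 lower. At the RefSeq start 16 were higher and 1 lower (median 3.41), and on the unit-start scale 16 and 0. H2AC6 was highest at the unit start (6.48) and H3C7 lowest (-2.22). H2AC6 had 6 and 18 N20 counts there, under the 95th percentile of background (20 and 36), so the size of its ratio is not measured. At its RefSeq start, 2769 bp downstream, H2AC6 was at 3.77. H3C7 was at 2.47 at the RefSeq start. Histone genes of the same family resemble each other, and how reads with several matches were assigned is not given for them either. Of the 14 tested hosts of small nucleolar RNAs, 10 were higher and 1 was lower (median 1.55), led by SNHG8 with 34.4 and 27.8 CPM of TT-Seq and 8.26 and 9.60 CPM of N20 (5.10). At the RefSeq start 11 were higher and 3 lower (median 1.76), and on the unit-start scale 11 and 2. SNHG21 went from -2.89 at its unit start to 1.50 at the RefSeq start. GAS5 went the other way, from 2.27 to -5.65. At the RefSeq start, 526 bp upstream of its unit start, it had 0.0145 and 0.0701 CPM of TT-Seq beside 16.7 and 13.6 CPM of N20. That TT-Seq level is near background, so the size of the ratio there is not measured.

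Immediate early and stress-response genes, whose promoters are known for paused polymerase, were more often lower than higher at unit starts. Of 31 tested, 5 were higher, 15 lower and 11 not called (median -0.79). KLF6, a zinc-finger factor, had 13.3 and 18.2 CPM of N20 and 0.102 and 0.154 CPM of TT-Seq at its unit start (-3.64), and JUN, an AP-1 subunit, was at -2.48. Both RefSeq starts lie over 1 kb downstream. With the window there, KLF6 had 16.3 and 19.2 CPM of TT-Seq (1.90) and JUN was at 2.28. The list as a whole had 12 higher and 12 lower there (median 0.07), and 15 higher and 8 lower on the unit-start scale (median 0.59). At their own starts, fitted among the named units alone, 4 were higher and 15 lower (median -0.94). KLF2, KLF4, FOSL2 and MAFF, whose RefSeq starts lie within 67 bp of the unit starts, were below -2. In KLF2 (0.0435 and 0.0982 CPM) and KLF4 (0.0871 and 0.0561 CPM) TT-Seq was near background, so the size of their ratios is not measured. TXNIP, a stress-induced arrestin, was the highest at both (3.40 and 5.50), and was no longer called at its unit start with 500 bp each side (1.13).

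**Figure D5:**
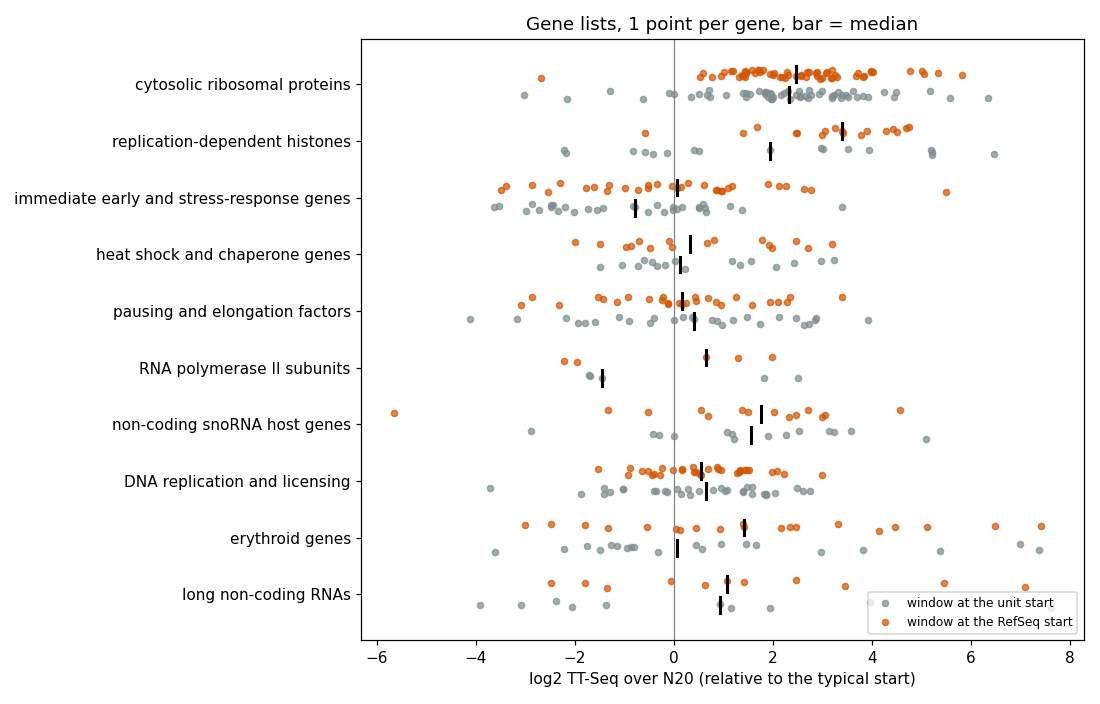
Log2 TT-Seq over N20 for each gene of 10 lists, with the window at the unit start (grey) and at the RefSeq start (orange). Black bars are list medians. Ribosomal protein genes have medians of 2.33 and 2.48, and immediate early genes of -0.79 and 0.07. Each centre is on the scale of its own fit, and the orange points would lie 0.52 higher on that of the grey ones.

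Pausing and elongation factors were spread over both sides, with 13 of 27 higher and 8 lower (median 0.40), with 10 higher and 8 lower at the RefSeq start, and 15 and 6 there on the unit-start scale. LARP7, a subunit of the 7SK particle that holds the pause-release kinase inactive, was highest (3.92). CDK12, an elongation kinase, was at 2.86 and SUPT5H, a subunit of DSIF, at 2.47. HEXIM2, another 7SK particle protein, was lowest (-4.12, and -3.10 at the RefSeq start), and NELFB, a subunit of the pausing complex NELF, was at -3.17. HEXIM2 had 2 and 6 TT-Seq counts at the RefSeq start, near background, so the size of that ratio is not measured either. Of 5 tested polymerase II subunit genes, POLR2D (2.51) and POLR2H were higher and 3 were lower. Of those, POLR2A, the largest subunit, went from -1.71 at its unit start to 0.65 at the RefSeq start, where 3 of the 5 were higher and 2 lower on either scale.

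Heat shock and chaperone genes had 7 of 16 higher and 2 lower (median 0.13), from DNAJB1 (-1.48) to HSPA9 (3.24). Their RefSeq starts gave 8 higher and 5 lower, and 10 and 3 on the unit-start scale. DNA replication and licensing genes had 16 of 32 higher and 7 lower (median 0.65), from CDT1 (-3.71, 0.17 at the RefSeq start) to MCM3 (2.75). The RefSeq starts of this list gave 16 higher and 5 lower, and 22 and 1 on the unit-start scale. Named long non-coding RNAs had 6 of 11 higher and 5 lower, with 7 and 3 at the RefSeq start and 8 and 3 there on the unit-start scale. CYTOR had 3.90 and 3.17 CPM of TT-Seq and 0.318 and 0.0857 CPM of N20 (7.62). Those are 4 and 2 N20 counts, no more than the background median, so the size of this ratio is not measured. TUG1 was at -3.92, and at -0.05 and not called at the RefSeq start (edgeR adjusted p = 0.834). Shares near 33.3% higher and 35.6% lower are those of all tested starts.

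Of 20 erythroid genes tested, 8 were higher and 8 lower at unit starts (median 0.07), and 12 were higher and 5 lower at RefSeq starts (median 1.41), or 14 and 4 on the unit-start scale. GYPB, a glycophorin, had 2.39 and 2.15 CPM of TT-Seq with 0.159 and 0.171 CPM of N20 (6.99). Its N20 counts, 2 and 4, are no more than the background median, so the size of this ratio is not measured, and it belongs to a family of near-identical genes, so its counts are uncertain. UROD, an enzyme of haem synthesis, was at -3.61 at its unit start and 2.34 at the RefSeq start. The erythroid factor GATA1 was at -0.32 (adjusted p = 0.399) and 4.47.

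The label was checked on 15 K562 markers, of which 6 had a named unit and all 6 were tested. Among them EPOR was at -1.75, TAL1 at 1.47, TFRC at -0.86 and LMO2 at 1.67. The TT-Seq of all 6 summed to 5.59 and 6.14 CPM and their N20 to 45.2 and 40.5 CPM. With the windows at their RefSeq starts the sums were 41.0 and 43.7 CPM of TT-Seq, of which GATA1 held 21.3 and 23.5 CPM, with 52.5 and 45.6 CPM of N20. TFRC was at 1.39 there. Of 19 markers of other cell types, 5 had a unit, with sums of 3.89 and 4.73 CPM of TT-Seq and 30.0 and 29.6 CPM of N20 at unit starts. At RefSeq starts their sums were 8.56 and 9.52 CPM of TT-Seq and 47.1 and 44.0 CPM of N20. At unit starts among these LYZ was highest in the ratio (3.02) and KRT18 lowest (-2.57). LYZ (6 and 22 N20 counts) and LMO2 (6 and 26) were under the 95th percentile of background at their unit starts. The size of their ratios there is not measured.

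Starts high in 1 assay and low in the other were taken by rank, so their own TT-Seq and N20 values are a description. A start was high when it was among the top 25% in both libraries of an assay (at least 79 and 88 counts of TT-Seq, or 134 and 270 counts of N20). It was low when it was among the lowest 25% in both libraries of the other (up to 12 and 13 counts of TT-Seq, or 24 and 50 of N20). This gave 421 starts high in TT-Seq and low in N20, 1.92% of all, and 265 starts high in N20 and low in TT-Seq, 1.21%. With both strands summed the first set had 974 starts and the second 120. When only starts with no other start in the window were ranked, with limits of their own, the first set had 267 starts. Without TT-Seq replicate 2 the second set had 404. The start nearest inside the first edge had 100 and 103 TT-Seq counts with 24 and 46 of N20. The nearest outside had 85 and 87 with 14 and 42. For the second, they were 166 and 370 N20 counts with 12 and 8 of TT-Seq, and 154 and 268 with 10 and 12.

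The 421 starts high in TT-Seq and low in N20 comprised 124 eRNA, 112 mRNA-class, 67 sincRNA, 49 unclassified, 31 asRNA, 18 lincRNA, 8 conRNA, 7 uaRNA and 5 other annotated units. As a share of the class they were 5.96% of lincRNA, 3.81% of eRNA and 1.43% of mRNA-class units. Their units had a median length of 19516 bp, against 9060 bp for all starts outside both sets, and 81.5% had no other start in the window, against 57.4%. Promoters of named members (89) had a median GC content of 48.4%, against 66.0% in 8257 promoters outside both sets, and TATAAA was in 19.1%, against 4.49%.

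The named members with the most TT-Seq were RPL35A, given above, and 4 others. ANXA1, a calcium-dependent phospholipid-binding protein, had 685 and 552 TT-Seq counts, with 0 and 4 N20 counts, which is at or below the background median of 4 and 6. Over its whole unit of 22578 bp, ANXA1 had 772 and 721 TT-Seq counts per kb with 1.15 and 3.19 N20 and 23.9 and 17.8 S2P counts per kb. TFPI, an inhibitor of coagulation, had 604 and 651 TT-Seq counts at its start with 2 and 12 of N20. SLC2A3, a glucose transporter, had 697 and 886 with 18 and 32, and GOLPH3L, a Golgi protein, had 602 and 700 with 10 and 20. In these 4 the N20 counts of both libraries were under the 95th percentile of background, so N20 was not detectable above background at this depth. RPL35A, with 22 and 32 counts, was above it in 1 library.

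Some of these starts have in their window a gene that another enzyme transcribes. tRNA genes are read by RNA polymerase III, which is not the antigen of N-20. The tRNA genes were sought on either strand, inside the unit or not, so the TT-Seq counted need not be theirs. The part of polymerase III in these ratios was not tested. A RefSeq tRNA gene lay in the window of 40 of the 421 starts (9.50%), of 1 of the 265, and of 0.925% of the starts outside both sets. This was looked for after the values were seen. Over all 237 starts with a tRNA gene in the window, 136 of 234 tested were higher and 42 lower (median 1.32). The shares of all tested starts are 33.3% higher and 35.6% lower. N20 was above background at 116 of the 237, against 75.6% of all units. In that group 123 units were sincRNA, and 96 lay on chromosome 6, against 11.8% and 6.20% of all units. The sincRNA unit at chr6:27229717-27231447 had 3392 and 3412 TT-Seq counts with 6 and 30 of N20, and that at chr6:27688191-27688790 had 1442 and 1410 with 22 and 50. RN7SK, the 7SK RNA and another polymerase III product, matched a unit at chr6:52995627-52995923 with 3673 and 4286 TT-Seq counts, and 78 and 126 of N20 (log2 ratio 6.60). These N20 counts are above the 99th percentile of background (40 and 66) and the limit for low N20, so this unit is not among the 421. Of 10 other units on either strand with RN7SK or another of 8 short non-coding RNA genes in the window, 8 were higher, from 1.18 at RNY4 to 6.30 at RN7SL1. Of all tested starts, 33.3% were higher. RN7SK and RPPH1 each had units on both strands, all called higher, so at least 1 unit of each pair counted the strand opposite the gene. The other two, near RMRP (0.46) and at RNY3 (0.28), were not called (edgeR adjusted p = 0.165 and 0.615).

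The 265 starts high in N20 and low in TT-Seq comprised 92 mRNA-class, 72 asRNA, 43 unclassified, 22 sincRNA, 11 eRNA, 9 conRNA, 9 uaRNA, 6 other annotated and 1 lincRNA units. They were 2.03% of asRNA and 0.338% of eRNA units. Among 126 named members, the RefSeq start lay more than 500 bp downstream of the unit start in 73.0%, against 23.9% of named starts outside both sets. The opposite strand held a median of 181 and 206 TT-Seq counts, against 43 and 48 outside both sets. It reached the top 25% limits of the own-strand counts in 74.7% of members, against 34.5% of starts outside both sets. When the windows of named units were centred on the RefSeq start and the same count limits applied, 20 of the 126 kept their place and 37 named starts met the rule.

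GOLGA2, a Golgi matrix protein, showed the pattern. At its unit start it had 666 and 936 N20 counts with 7 and 5 TT-Seq counts on its own strand, and 494 and 532 on the opposite strand. At the RefSeq start, 1214 bp downstream, it had 898 and 1458 N20 counts with 616 and 706 TT-Seq counts. PI4KA, a lipid kinase, had 556 and 1558 N20 counts with 7 and 13 of TT-Seq, and 317 and 330 TT-Seq counts at the RefSeq start. LOC105372240 (500 and 846 of N20, 6 and 10 of TT-Seq), LINC01126 (308 and 694, 11 and 12) and C5orf34-AS1 (386 and 538, 7 and 6) completed the 5 named by level. LOC105372240 and LINC01126 had 51 and 43, and 83 and 101, TT-Seq counts at the RefSeq start, so they stayed lower there than PI4KA or GOLGA2.

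Libraries that did not choose the sets gave the same directions. In the fit of 4sU-Seq against S2P at the same windows, 33.6% of 20801 tested starts were higher in 4sU-Seq and 37.8% lower. Of the 421 starts high in TT-Seq and low in N20, 419 were higher in 4sU-Seq than in S2P and 2 were not called (median log2 ratio 4.62). Of the 265 starts high in N20 and low in TT-Seq, 264 were lower and 1 was not called (median -3.64). The windows, strands and unit starts were the same in this fit, so it repeats the libraries and not the placement. 4sU-Seq also used the same pulse, and S2P is a form of the same polymerase. The like directions are therefore not independent support for the sets. ANXA1 had 0 and 2 S2P counts at its start with 307 and 253 of 4sU-Seq, and GOLGA2 had 672 and 308 with 6 and 2.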

How the data were processed

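Counts per 200 bp bin of the human genome were deposited by the authors for each library, with RNA split by strand and ChIP unstranded. The submitters' processing notes name STAR 2.3.0, Bowtie2 2.1.0 and SAMtools, with build hg38, without their roles. Multi-read handling, duplicate removal and fragment counting are not given in the sources used here. No other per-sample columns were present.

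Bins were summed over 1 kb each side of each unit start (10 bins; 2 kb), own strand for TT-Seq. Windows more than 10 kb from any unit gave the background. Units were named from RefSeq (GRCh38.p14) starts on the same strand from 1 kb upstream to 3 kb downstream of the unit start, or by coverage of at least 0.8 of a gene (9475 of 21874 units). edgeR 4.0.16 (R 4.3.3; robust quasi-likelihood fit, filterByExpr, TMM, Benjamini-Hochberg threshold 0.05) compared 2 TT-Seq with 2 N20 libraries, with all binned counts as library size. The fit was tested on simulated counts. Class medians used log2 CPM with a prior count of 1. Replicate numbers were not taken to pair the libraries. The deviations of same-numbered libraries correlated at 0.041, which with 2 libraries per assay cannot show whether they were paired.

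The members and lists were chosen with earlier results of these data known. Named genes were, by rule, the 8 highest and 8 lowest called mRNA-class starts with a symbol, all 4 libraries above the 99th background percentile and no other start in the window. The rule added the highest and lowest of each other class, the 5 strongest named starts of each discordant set, both ends of each of 12 gene lists, and the K562 markers. Some results named by the rule are not reported here. Alternatives covered scaling, DESeq2 1.42.0, filters, strand, window, background and single libraries.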

Additional observations from a re-analysis of the deposited data

How the results depend on the processing

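With library totals in place of TMM, which shifts the median of all starts to -3.37, 658 starts were higher in TT-Seq and 19053 lower. Keeping only starts with no other start in the window tested fewer starts and gave 3989 higher and 4109 lower. Named units gave 3180 and 3478 at the RefSeq start, 4431 and 2348 there with the scaling of the unit-start fit, and 3134 and 3470 at their own start. Leaving out each library gave 5629 to 7955 higher and 6189 to 8429 lower. DESeq2 called 6281 higher and 5857 lower, and halving the N20 counts 7232 and 7565. The windows at the RefSeq start, the halved counts, the N20 ranges and the background limit for low N20 were chosen after seeing the data. With the replicate number as a block (replicate block), 7280 were higher and 7764 lower, within 1.5 times the unblocked counts, and the deviations of the 2 same-numbered pairs correlated at 0.041, so the numbers are not taken to pair the libraries.

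With both strands summed, the class difference from mRNA became 0.59 for asRNA, 0.28 for unclassified units, 0.27 for conRNA, 0.45 for uaRNA and 0.28 for other annotated units. With N20 above background it became -0.68 for eRNA and -0.21 for lincRNA. For sincRNA it became 0.25 with 500 bp each side, 0.14 downstream only and 0.41 with no other start, and for other annotated units 0.20 with 500 bp each side. Without single libraries the class differences ranged from -1.27 to -1.22 for asRNA, 0.93 to 1.06 for eRNA, -0.64 to -0.59 for unclassified, -0.53 to -0.48 for sincRNA, -1.23 to -1.11 for conRNA, -0.998 to -0.890 for uaRNA, 0.0037 to 0.13 for lincRNA and -0.21 to -0.070 for other annotated units. None of these differences could pass a test at 2 against 2 libraries.

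The set high in TT-Seq and low in N20 had 49 starts at the 10% limits, 883 at limits of 33.3% and 974 with both strands summed. It had 267 when only starts with no other start in the window were ranked. Without single libraries it had 444 to 476. The set high in N20 and low in TT-Seq had 22 at the 10% limits, 676 at limits of 33.3%, 120 with both strands summed, 305 to 404 without single libraries (404 without TT-Seq replicate 2), and 37 among named units at the RefSeq start. Calls in 4sU-Seq against S2P within the sets ran from 417 to 420 and from 262 to 264 without single libraries. The rank relation of the mean levels, 0.430, became 0.365 with both strands, 0.363 downstream only and 0.407 with no other start.

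Named starts, relative to the median of all starts in each fit, changed sign as follows with a call on at least 1 side, and the cause was not tested. Downstream only, DNAJB1 became 0.55. With 500 bp each side, RPL4 became -3.39, NDUFV2 2.40, TFRC 0.10, and the lowest lincRNA 0.67 and eRNA 0.030. With both strands summed, GABPB1 became 0.54, NDUFV2 0.34, C5orf34-AS1 0.75, LINC01126 0.19, LOC105372240 0.39, RPL7A 0.58, H3C7 3.46, KLF6 0.87, HEXIM2 1.25, POLR2A 0.58, SNHG21 1.00, CDT1 1.23, TUG1 0.46, GATA1 0.94 and KRT18 3.60. At the RefSeq start, NSD3 became 0.73, SOCS1 0.95, NDUFV2 1.70, GOLGA2 0.032, RPL7A 0.86, H3C7 2.55, KLF6 1.98, POLR2A 0.73, SNHG21 1.58, CDT1 0.25, UROD 2.42, TUG1 0.033, TFRC 1.47, KRT18 0.83 and GATA1 4.55, which was not called at its unit start. Of all values of named starts under alternatives, 36 are these changes of sign, 1009 kept their side of the threshold, 21 lost the call and 2 gained it with the sign kept (both GATA1). Of the 1009, 2 changed sign without a call on either side. NDUFV2 lost it with DESeq2 (-0.59), with N20 above background (-0.18), and without TT-Seq replicate 1 (-0.60) or 2 (-0.55). With 500 bp each side, GOLGA2 (-0.61), POLR2A (-0.16), SNHG21 (-0.78), TAL1 (0.12) and KRT18 (-0.79) lost it, and with both strands summed SOCS1 (-0.56) and TAL1 (0.28). With library totals the highest uaRNA, TXNIP, HSPA9, MCM3 and LYZ lost it. N20 was above background in both libraries at 31.1% of eRNA starts, which limits their ratios.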
